A study of Arabidopsis thaliana with 54 samples.

Results

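Isocitrate lyase (ICL, AT3G21720) is the enzyme that cleaves isocitrate in the glyoxylate cycle, the route by which an oilseed seedling turns stored fat into sugar. The set described here was defined as ICL plus whichever of malate synthase (MLS), the phosphoenolpyruvate carboxykinase PCK1 (AT4G37870), the thiolase KAT2 and the acyl-CoA synthetase LACS7 the expression table holds. Of these 5 genes the table, with 23997 usable entries in all, holds 2, ICL and PCK1, and MLS, KAT2 and LACS7 were not analysed here. ICL was chosen from its measured values, namely its low level with GV at 30 min and its high control level at 30 min relative to 5 min. Its levels are therefore given as a description with no test. PCK1 and 5 further genes of lipid use, named below by their roles, were listed for their function, with earlier results of these data known, and were tested.

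Whole Arabidopsis thaliana seedlings were exposed to guvermectin (GV), a purine nucleoside made by a Streptomyces bacterium, at 10 µM or to a plant hormone at 1 µM, or were left as controls. The hormones were IAA, an auxin, ZT, a cytokinin, eBL, a brassinosteroid, and GA3, a gibberellin. RNA was taken after 5, 30 or 180 min. The 6 treatments at 3 times gave 18 groups of 3 libraries, 54 in all, and the dose of GV differs from that of the hormones. In the table IAA columns carry the name IAA, ZT columns CTK (the usual short form of cytokinin), eBL columns BR (brassinosteroid), GA3 columns GA (gibberellin) and control columns CK, all matched through these names. Columns with the letter W were left over and were taken as GV by elimination. The labels give neither the age of the seedlings nor what the controls received, and name no separate cultures for the 3 libraries of a group. The p-values therefore describe only how these libraries differ, which may be technical. Library totals implied by the values were 17.8 to 23.8 M reads, and genes in the table took 27.3% to 41.9% of them. The table holds 209 genes with a mean of 344 FPKM (fragments per kilobase of transcript, scaled to library size) or more and then continues at 10.5 FPKM and below, so that genes of intermediate level were not analysed here. One library, eBL 30 min replicate 3, correlated at only 0.867 to 0.871 with the other libraries of its group, where all other pairs within groups reached at least 0.971. Values without that library are given beside the eBL calls at 30 min that it changes. Leaving it out also changed calls in comparisons that do not involve eBL.

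In a germinating oilseed, lipases release fatty acids from oil bodies, and peroxisomal acyl-CoA oxidases and thiolases shorten them to acetyl-CoA. ICL and malate synthase then join acetyl units into succinate and malate, bypassing the steps of the citric acid cycle that lose carbon, and phosphoenolpyruvate carboxykinase takes the resulting oxaloacetate towards sugar. Transcripts of this pathway are known to be high soon after germination and to decline as the seedling becomes photosynthetic.

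ICL lies on the minus strand of chromosome 3, from 7652487 to 7656053 in the TAIR10.1 assembly, with 5 exons and 1731 coding bases. PCK1 lies on the minus strand of chromosome 4, from 17802690 to 17806705, with 13 exons and 2016 coding bases. No annotated gene overlaps either of them. The 250 bases before each annotated start are shown because these are the promoters of the 2 genes whose levels are compared. They were read from the RefSeq TAIR10.1 assembly at chr3:7656054-7656303 and chr4:17806706-17806955, both on the minus strand and written 5′ to 3′. Capitals mark a match to ACGTG, the core of the elements that abscisic acid-responsive bZIP factors bind, searched on both strands.
ICL: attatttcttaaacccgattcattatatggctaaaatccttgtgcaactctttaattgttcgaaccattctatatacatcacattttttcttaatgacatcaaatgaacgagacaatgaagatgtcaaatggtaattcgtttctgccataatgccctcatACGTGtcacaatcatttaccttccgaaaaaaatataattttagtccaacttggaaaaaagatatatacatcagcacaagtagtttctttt
PCK1: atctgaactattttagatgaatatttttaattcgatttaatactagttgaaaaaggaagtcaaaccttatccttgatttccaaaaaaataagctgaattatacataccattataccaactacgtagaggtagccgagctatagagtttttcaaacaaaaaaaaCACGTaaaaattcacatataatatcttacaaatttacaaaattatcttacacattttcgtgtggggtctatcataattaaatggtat
The ICL window held the core on its coding strand, 90 bases before the start, and the PCK1 window held it on the other strand, 87 bases before the start. The same core was present in 22.9% of 27443 windows of this length, so a match in both is a description of these sequences and not a site. No match was found in either window to the G-box CACGTG (6.49% of windows), the RY core CATGCA (8.43%) or the TATCCA element (13.6%), each searched on both strands, or to TATAAA on the coding strand (32.9%). The G-box contains the ACGTG core.

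ICL was one of the most abundant transcripts measured, and one of the most variable among the 209 abundant genes. Its group means ran from 413 FPKM in controls at 5 min to 6301 FPKM with GA3 at 180 min, a 15.2-fold range. By mean level it held rank 19 in the table. By its range it held rank 2 of the 209 abundant genes, whose median range was 2.3-fold. In single libraries it took 0.0863% to 1.45% of all reads, or 17063 to 311582 reads, so counting error was small beside every difference given here. Libraries of a group differed by a coefficient of variation of 0.986% to 6.79%, apart from 17.8% in the eBL 30 min group. In bulk seedlings, a difference in the share of cells that express ICL cannot be told apart from a difference in transcript per cell.

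At 5 min ICL was higher than in controls with 4 of the 5 compounds. With GA3 it had 3081, 3048 and 2984 FPKM, against 413, 390.1 and 438 FPKM in controls. Every GA3 library thus exceeded every control library, and the mean of 3038 ± 49.0 FPKM with GA3 was 7.35 times that of 413 ± 23.8 FPKM in controls (SD, n = 3 each). GV gave the next highest level, with 1426, 1606 and 1437 FPKM, a ratio of 3.6 to controls. ZT libraries, at 804, 795 and 852 FPKM, stood at 1.98 times the control mean, and IAA libraries, at 593, 625 and 575 FPKM, at 1.45 times. None of these overlapped the controls. The eBL libraries, at 468, 445 and 418 FPKM, overlapped them, with a ratio of 1.07. At this time 11% of 10622 tested genes passed an adjusted p of 0.05 with GV, 12.2% with IAA, 27.5% with ZT, 3.34% with eBL and 34.7% with GA3, either way.

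At 30 min the order was turned round, and every compound gave less ICL than the control. With GA3, ICL had 676, 652 and 690.5 FPKM, against 3132, 3376 and 3279 FPKM in controls, or 0.206 of the control mean. That mean, 3262 ± 123 FPKM (SD, n = 3), was 7.89 times the control level at 5 min. With GV it had 795, 761 and 774 FPKM, or 0.238, and these values were among those that chose the gene. ZT libraries had 889.6, 885 and 968 FPKM, 0.280 of the control mean. eBL libraries had 1660.4, 1488 and 1159 FPKM, 0.440 of it, and IAA libraries 2017, 2012 and 2083 FPKM, 0.625 of it. No treated library overlapped a control library, and IAA stood closest to the control. The lowest eBL value is that of replicate 3, the library that stands apart, and without it the eBL difference on the log2(FPKM + 1) scale was -1.05, against -1.20 with it. After quantile normalization the eBL difference was -0.58 and the ZT difference -1.32, against -1.83 as deposited. Of all tested genes, 4.99% passed with GV at this time, 9.83% with IAA, 38.6% with ZT, 43.6% with eBL and 31.2% with GA3, either way. The eBL share was 37.7% without replicate 3 and 8.6%, or 913 genes, when only the eBL and control libraries of 30 min were fitted.

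At 180 min the compounds lay on both sides of the control. With GA3, ICL reached 6084, 6554 and 6264 FPKM, its highest values in the study, against 1826, 1833 and 1798 FPKM in controls, 3.46 times the control mean. The control level was 0.558 of that at 30 min, a log2 difference of -0.84 that was -0.30 after quantile normalization. IAA libraries had 3966, 4025 and 3950.2 FPKM, 2.19 times it, and eBL libraries 2400, 2368 and 2165 FPKM, 1.27 times it. All libraries of these 3 compounds exceeded the controls. GV libraries had 861, 881 and 946 FPKM, 0.493 of the control mean, and ZT libraries 1119.6, 1186 and 1124 FPKM, 0.629 of it, all below the controls. At 180 min 9.17% of tested genes passed with GV, 17.7% with IAA, 41.7% with ZT, 38% with eBL and 41% with GA3. Over the 3 times, ICL thus did not overlap its control in 14 of 15 comparisons, 7 above it and 7 below. How often other genes do so was not counted over the table, and PCK1 overlapped its control only with eBL at 30 min. The comparisons at 30 min all share the control whose high level was among the values that chose ICL.

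**Figure D1:**
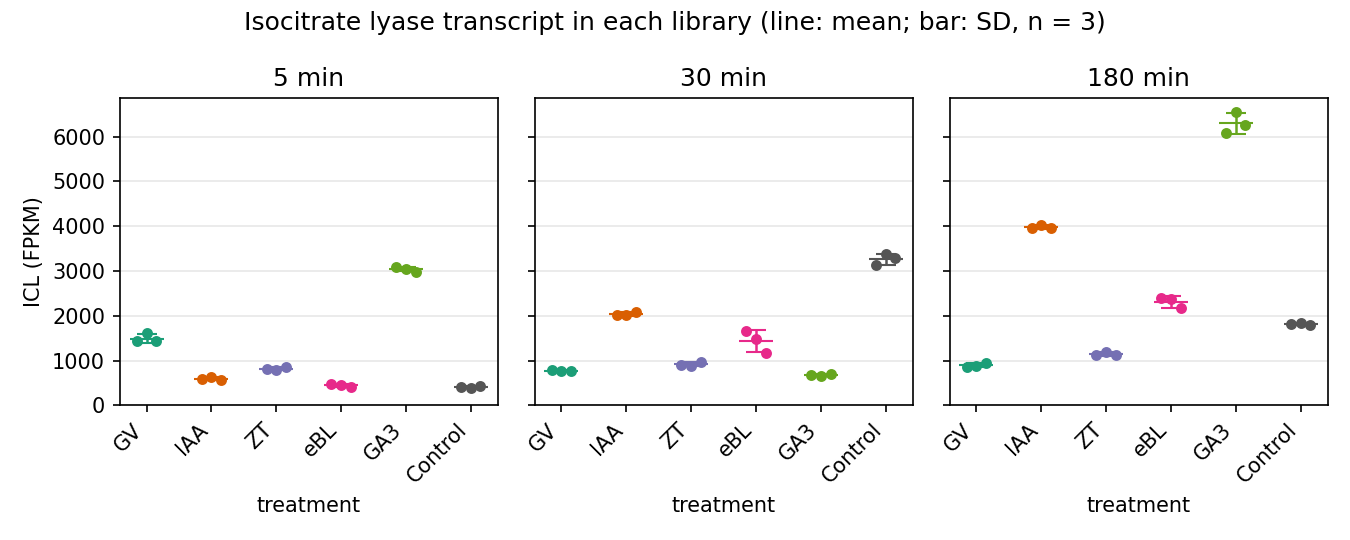
ICL transcript level in FPKM (linear axis from 0) for each treatment at 5, 30 and 180 min; points are single libraries, lines the mean and bars the SD of 3. GA3 stands at 3038 FPKM at 5 min, 673 FPKM at 30 min and 6301 FPKM at 180 min, while the control stands at 413, 3262 and 1819 FPKM at the same times.

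Each treatment had its own course in time. GA3 gave a high, low and high level, falling to 0.221 of its 5 min mean at 30 min and standing at 9.37 times that 30 min mean at 180 min. The control had its peak at 30 min, when GA3 was lowest. IAA and eBL increased at each time, and their means at 180 min were 6.66 and 5.21 times those at 5 min. GV was highest at 5 min, at 1489.7 ± 101 FPKM (SD, n = 3), and its mean at 30 min was 0.521 of that. ZT varied least over time, between 817 ± 30.9 FPKM at 5 min and 1143 ± 37.0 FPKM at 180 min. Of the spread of the 18 group means on the log2 scale, time accounted for 25.6%, treatment for 17.4% and the combination of both, treatment by time, for 57.0%. Libraries within groups made up 0.404% of the spread over all 54 libraries.

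Ordered by mean, ICL was lowest in controls at 5 min, followed upwards by eBL and IAA at 5 min, GA3 and GV at 30 min, ZT at 5 min, GV at 180 min, ZT at 30 and 180 min, eBL at 30 min, GV at 5 min, controls at 180 min, IAA at 30 min, eBL at 180 min, GA3 at 5 min, controls at 30 min, IAA at 180 min and GA3 at 180 min. Libraries overlapped in 4 of the 17 neighbouring pairs of that order. These were controls and eBL at 5 min, GV at 180 min and ZT at 30 min, ZT at 180 min and eBL at 30 min, and eBL at 30 min and GV at 5 min. The remaining 13 neighbours did not overlap. The columns of the table stand in 3 runs, all 5 min groups in columns 1 to 18, ZT, eBL and GA3 at the later times in columns 19 to 36, and GV, IAA and controls at the later times in columns 37 to 54, although the labels name no batch. ICL group means spanned 413 to 3038 FPKM in the first run, 673 to 6301 FPKM in the middle one and 777 to 3980 FPKM in the last.

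PCK1, the phosphoenolpyruvate carboxykinase that is the main form of Arabidopsis seedlings, was also abundant, at rank 163 in the table, but moved over a narrower range of 3.44-fold. It was lowest with GV at 30 min and highest, like ICL, with GA3 at 180 min. On the log2(FPKM + 1) scale it passed the test against the control in 7 of 15 comparisons. Without eBL 30 min replicate 3, in which PCK1 had 237 FPKM, it passed in 14 of 15. Over these comparisons 3.34% to 43.6% of all tested genes passed, and 6.16% to 47.4% without that library. PCK1 libraries of a group differed by a coefficient of variation of 0.536% to 3.91%, apart from 27.6% in the eBL 30 min group.

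At 5 min GA3 libraries had 467, 461 and 468 FPKM of PCK1, against 311, 301 and 312 FPKM in controls. The groups did not overlap, and the log2 difference was 0.60 ± 0.09 (SE; adjusted p = 5.57e-07). GV libraries, at 345, 358 and 356 FPKM, IAA libraries, at 358, 353 and 353 FPKM, ZT libraries, at 339, 334 and 338 FPKM, and eBL libraries, at 356, 349 and 334 FPKM, also lay above all controls. Their log2 differences of 0.20, 0.20, 0.13 and 0.17 did not pass (adjusted p = 0.168, 0.136, 0.297 and 0.389). Without eBL 30 min replicate 3 all 4 passed, with adjusted p from 8.97e-06 to 0.00149. They also passed after quantile normalization, with 0.51 for GV, 0.30 for IAA, 0.47 for ZT and 0.37 for eBL.

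At 30 min GV libraries had 266, 265 and 255 FPKM of PCK1, against 330.25, 328 and 327 FPKM in controls. PCK1 fell by 0.32 on the log2 scale with GV (adjusted p = 0.0196), all 3 GV libraries lying below all controls. This call was lost when no filter on low values was used (adjusted p = 0.108) and without GV replicate 3 (0.0783), control replicate 1 (0.0634), control replicate 2 (0.0575) or control replicate 3 (0.0549), and it had an adjusted p of 4.92e-10 without eBL 30 min replicate 3. PCK1 rose with ZT, whose libraries had 394, 399 and 409 FPKM, by a log2 difference of 0.29 (adjusted p = 0.0087), or 0.58 after quantile normalization. GA3 libraries, at 377, 360.5 and 370.4 FPKM, and IAA libraries, at 353, 358 and 349.8 FPKM, lay above all controls, with log2 differences of 0.17 and 0.11 that did not pass (adjusted p = 0.149 and 0.54). Both passed without eBL 30 min replicate 3 (6.83e-05 and 0.0209). The eBL libraries themselves had 408, 399 and 237 FPKM, 2 above the controls and replicate 3 below them. Their log2 difference was 0.04 (adjusted p = 0.73) with replicate 3 and 0.30 (adjusted p = 1.29e-08) without it.

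At 180 min PCK1 rose with all 4 hormones. GA3 libraries had 877, 920.3 and 909 FPKM, against 304, 299 and 297 FPKM in controls, and the mean of 902 ± 22.8 FPKM with GA3 stood against 300.3 ± 3.45 FPKM in controls (SD, n = 3 each). The log2 difference was 1.58 ± 0.09 (SE; adjusted p = 1.38e-18). eBL libraries had 567, 583 and 552 FPKM (log2 difference 0.92, adjusted p = 3.06e-11). IAA libraries had 496, 495 and 501 FPKM (0.73, adjusted p = 1.98e-08), and ZT libraries 479, 513 and 481 FPKM (0.71, adjusted p = 1.24e-08). GV libraries had 286, 282 and 285 FPKM, all below the controls, with a log2 difference of -0.08 that did not pass (adjusted p = 0.666). After quantile normalization it was -0.19 and passed (adjusted p = 0.0176). In controls themselves, PCK1 differed by 0.09 at 30 against 5 min (adjusted p = 0.456), where 31.4% of tested genes passed, and by -0.13 at 180 against 30 min (adjusted p = 0.318), where 22.5% did. After quantile normalization the step between 30 and 180 min turned to 0.18 (adjusted p = 0.0104). ICL differed by 2.98 and -0.84 in the same 2 steps.

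**Figure D2:**
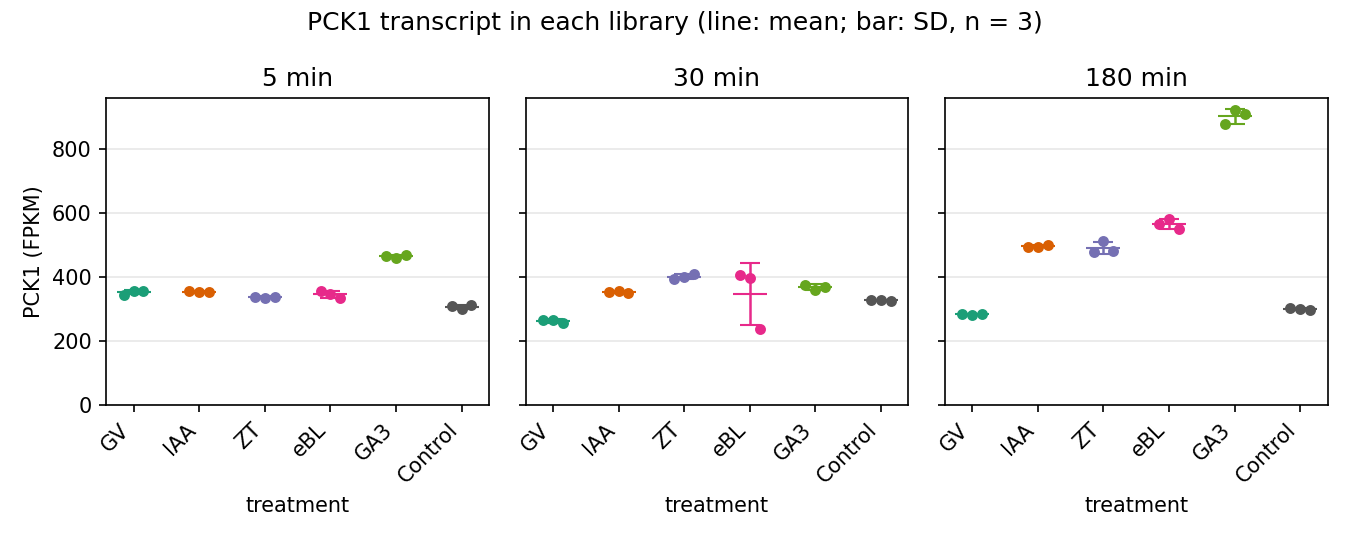
PCK1 transcript level in FPKM (linear axis from 0) for each treatment at 5, 30 and 180 min; points are single libraries, lines the mean and bars the SD of 3. GA3 at 180 min stands at 902 FPKM against 300.3 FPKM in controls, and 1 eBL library at 30 min lies at 237 FPKM below the other 2 of its group at 399 and 408 FPKM.

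Because ZT, eBL and GA3 at the later times share a run of columns that holds no control, PCK1 was also compared within that run, a comparison added after the data were seen. At 180 min GA3 exceeded the mean of ZT and eBL by 0.77 (adjusted p = 5.76e-11), in a comparison where 28% of all tested genes passed. ZT lay below the mean of eBL and GA3 by a difference of -0.54 (adjusted p = 1.65e-07, with 38.4% of genes passing), and eBL below the mean of ZT and GA3 by -0.23 (adjusted p = 0.0244, with 22.3%). At 30 min eBL differed from the mean of ZT and GA3 by -0.19 (adjusted p = 0.0476, with 41.9%), but by 0.07 (adjusted p = 0.121) without its replicate 3. GA3 at 30 min differed from the mean of ZT and eBL by 0.004 (adjusted p = 0.981, with 19.2% of genes passing), and by -0.12 (adjusted p = 0.00208) without eBL replicate 3. The IAA difference at 180 min, 0.73, lies within a single run of columns, since IAA and control columns stand together.

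PCK1 and ICL followed each other in part. Over the 18 group means their correlation on the log2 scale was 0.65 (Pearson) or 0.47 (Spearman), and 4.53% of 5824 genes had a Pearson value at least as high as PCK1's. All points share the same libraries and depth, so this is a description. Both genes were highest with GA3 at 180 min. They differed in controls at 30 min, where ICL stood at place 16 of 18 from the lowest and PCK1 at place 5. With ZT the PCK1 libraries stood above and the ICL libraries below the control at 30 min (log2 differences 0.29 for PCK1 and -1.83 for ICL) and again at 180 min. With GA3 and IAA at 30 min the libraries of the 2 genes also lay on opposite sides of the control, with PCK1 differences of 0.17 and 0.11 that did not pass and ICL differences of -2.28 and -0.68.

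Beyond these 2 genes the lipid pathway is held in the table only in part. Of 40 listed genes of lipid use, from lipases to gluconeogenesis, 8 were present, and 6 apart from ICL were abundant enough to test. These are PCK1, its paralog PCK2, the mitochondrial succinate-fumarate carrier SFC1, the acyl-CoA oxidase ACX5, the thiolase KAT5 and SDP1L, a relative of the oil-body lipase SDP1. A further acyl-CoA oxidase, ACX6, reached only 0.242 FPKM in its highest group and was not tested. ICL and PCK1 were the only 2 of the 8 with group means above 100 FPKM, and the other 5 tested genes had group means between 1.43 and 13.8 FPKM.

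In all, 37 of 90 comparisons of these 6 genes with a control passed. This is the fit of all 54 libraries, and leaving out eBL 30 min replicate 3 raised many of the counts below. Without it there were 3 higher and 1 lower with ZT at 5 min, 4 and 2 with ZT at 30 min, and 1 and 0 with IAA at 30 min. The shares of all tested genes passing rose there as well, from 27.5%, 38.6% and 9.83% to 33.7%, 44.9% and 14.1%. With GV at 5 min 1 of the 6 genes was higher and 0 lower than in controls, beside 7.82% and 3.16% of all tested genes, and the median log2 difference was 0.11, beside 0.029 over all tested genes. At 30 min 0 were higher and 1 lower with GV (1.51% and 3.48% of all genes), with medians of -0.01 and -0.024. At 180 min 1 was higher and 0 lower with GV (5.59% and 3.58% of all genes), with medians of -0.09 and 0.001. The GV calls were PCK2 at 5 and 180 min and PCK1 at 30 min. With IAA at 5 min 0 of the 6 genes were higher and 1 lower than in controls, beside 6.86% and 5.29% of all tested genes, and the median log2 difference was -0.03, beside 0.028 over all tested genes. At 30 min 0 were higher and 0 lower with IAA (7.16% and 2.66% of all genes), with medians of 0.03 and 0.031. At 180 min 3 were higher and 0 lower with IAA (11.2% and 6.48% of all genes), with medians of 0.30 and 0.046. The IAA calls were PCK2 at 5 min and PCK1, PCK2 and SFC1 at 180 min.

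With ZT at 5 min 1 of the 6 genes was higher and 0 lower than in controls, beside 19.5% and 8.02% of all tested genes, and the median log2 difference was 0.05, beside 0.071 over all tested genes. At 30 min 4 were higher and 0 lower with ZT (19.1% and 19.5% of all genes), with medians of 0.30 and -0.028. At 180 min 4 were higher and 1 lower with ZT (17.1% and 24.7% of all genes), with medians of 0.45 and -0.051. With ZT at 180 min the higher genes were PCK1, PCK2, SFC1 and ACX5, and the lower one was KAT5. With eBL at 5 min 0 of the 6 genes were higher and 0 lower than in controls, beside 2.27% and 1.07% of all tested genes, and the median log2 difference was 0.02, beside 0.039 over all tested genes. At 30 min 2 were higher and 2 lower with eBL (23.1% and 20.6% of all genes), with medians of -0.03 and -0.007. Without eBL replicate 3 there were 3 higher and 1 lower, with a median of 0.22 for the 6 genes, since SDP1L no longer passed and PCK1 did. At 180 min 4 were higher and 1 lower with eBL (16.2% and 21.8% of all genes), with medians of 0.49 and -0.052. The 180 min calls with eBL fell on the same genes in the same directions as those with ZT. With GA3 at 5 min 3 of the 6 genes were higher and 1 lower than in controls, beside 23.7% and 11% of all tested genes, and the median log2 difference was 0.29, beside 0.083 over all tested genes. At 30 min 2 were higher and 1 lower with GA3 (14.4% and 16.8% of all genes), with medians of 0.11 and -0.042. At 180 min 3 were higher and 1 lower with GA3 (17.3% and 23.6% of all genes), with medians of 0.48 and -0.066. The GA3 calls included PCK2 and, in the higher direction, PCK1 at 5 and 180 min. In the fit of all libraries IAA at 30 min gave 0 calls with limma, and 0 of the 6 genes had an unadjusted p under 0.05 there.

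The genes moved in different directions. At the start of the pathway, the lipase relative SDP1L passed in the fit of all libraries only with eBL at 30 min. The eBL libraries had 3.45, 3.08 and 1.02 FPKM there, against 4.03, 4.29 and 3.16 FPKM in controls. That difference of -0.53 (adjusted p = 0.00416) became -0.17 (adjusted p = 0.248) without eBL replicate 3, the lowest of the values. The groups overlapped, and with only these 2 groups in the fit the adjusted p was 0.328. Without eBL 30 min replicate 3 SDP1L passed instead with ZT and GA3 at 5 min, ZT at 30 min, and GV and eBL at 180 min. The adjusted p then lay between 0.00957 and 0.0398. Of the acyl-CoA oxidases, which catalyse the first step of peroxisomal β-oxidation, ACX5 rose with GA3 at 30 min, at 8.78, 7.99 and 8.74 FPKM, against 5.82, 6.36 and 6.11 FPKM in controls, by 0.42 (adjusted p = 0.00298). It also rose with ZT and eBL at 180 min, by 0.43 (adjusted p = 0.00145) and 0.41 (adjusted p = 0.00315). Its calls with GA3 at 5 min (-0.28, adjusted p = 0.0457) and ZT at 30 min (0.30, adjusted p = 0.026) were lost under several alternatives, with adjusted p of up to 0.198 and 0.102. ACX5 group means were lowest with IAA at 180 min, where ICL was higher than in all groups but GA3 at 180 min.

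KAT5, a thiolase of the last step of β-oxidation, fell with ZT, eBL and GA3 at 180 min. GA3 libraries had 1.09, 1.89 and 1.63 FPKM and ZT libraries 1.61, 1.65 and 1.84 FPKM, against 4.63, 4.70 and 4.68 FPKM in controls. The log2 differences were -1.18 (adjusted p = 5.99e-08) with GA3, -1.07 (adjusted p = 3.29e-07) with ZT and -0.99 (adjusted p = 2.29e-06) with eBL, with no overlap of libraries. With eBL at 30 min the difference was -1.18 (adjusted p = 5.11e-08), and -0.85 (adjusted p = 1.22e-06) without replicate 3, whose KAT5 level of 0.460 FPKM lay below the 1.84 and 1.99 FPKM of the other 2. With only the eBL and control libraries of 30 min in the fit its adjusted p was 0.0595. The call with GA3 at 30 min (adjusted p = 0.0436) was lost under several alternatives, with an adjusted p of up to 0.212. KAT5 group means were 1.43 to 3.08 FPKM in the run of columns with ZT, eBL and GA3 at the later times, 3.73 to 4.59 FPKM at 5 min and 3.52 to 4.77 FPKM in the run with GV, IAA and controls, so its calls moved with the runs of columns, whose part in the result was not tested.

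SFC1, the carrier thought to bring succinate from the glyoxylate cycle into mitochondria, was highest in the group where ICL was highest. It averaged 13.8 ± 1.10 FPKM with GA3 at 180 min and 7.50 ± 1.35 FPKM in controls (SD, n = 3 each), and the libraries did not overlap (log2 difference 0.81, adjusted p = 7.77e-07). It also rose with GA3 at 5 min (0.53, adjusted p = 0.000532), where ICL was 7.35-fold higher. With ZT at 30 min it had 14.1, 11.7 and 12.3 FPKM, against 6.40, 6.73 and 6.24 FPKM in controls, a rise of 0.87 (adjusted p = 2.05e-07) in a group where ICL was below its control. Rises of 0.46 with ZT and 0.58 with eBL at 180 min passed as well (adjusted p = 0.0021 and 0.000199). Those with eBL at 30 min (0.29, adjusted p = 0.0493) and IAA at 180 min (0.36, adjusted p = 0.0312) were lost under several alternatives, with adjusted p of up to 0.212 and 0.227.

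PCK2, a further phosphoenolpyruvate carboxykinase, showed the most calls of the 6 genes in the fit of all libraries. Without eBL 30 min replicate 3 PCK1 had more calls than PCK2, in 14 of 15 comparisons with a control. PCK2 had 12.4, 14.3 and 12.2 FPKM with eBL at 30 min, against 3.26, 2.77 and 2.67 FPKM in controls. This was a rise of 1.84 (adjusted p = 1.98e-19). ZT and GA3 at that time gave rises of 1.44 (adjusted p = 7.03e-16) and 1.31 (adjusted p = 2.08e-14), and at 180 min ZT, eBL and GA3 gave 1.22, 1.71 and 1.67. Between 5 and 30 min PCK2 fell in controls by 1.40 on the log2 scale (adjusted p = 1.81e-15). Its group means were 5.94 to 12.4 FPKM at 5 min, 6.44 to 13.0 FPKM in the run of columns with ZT, eBL and GA3 at the later times, and at most 4.11 FPKM in the run with GV, IAA and controls, with no overlap between the last 2. Whether the run of columns has a part in this was not tested. Within the last run, GV and IAA rose over the control at 180 min by 0.67 (adjusted p = 1.63e-06) and 0.65 (adjusted p = 1.28e-06). At 5 min PCK2 was lower with IAA (-0.56, adjusted p = 3.1e-05) and higher with ZT (0.38, adjusted p = 0.00173, but 0.0951 after quantile normalization). Its 5 min calls with GV (0.29, adjusted p = 0.04) and GA3 (0.26, adjusted p = 0.0303) were lost under several alternatives, with adjusted p of up to 0.179 and 0.152. How reads that match both PCK genes were assigned is not given in the sources used here.

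**Figure D3:**
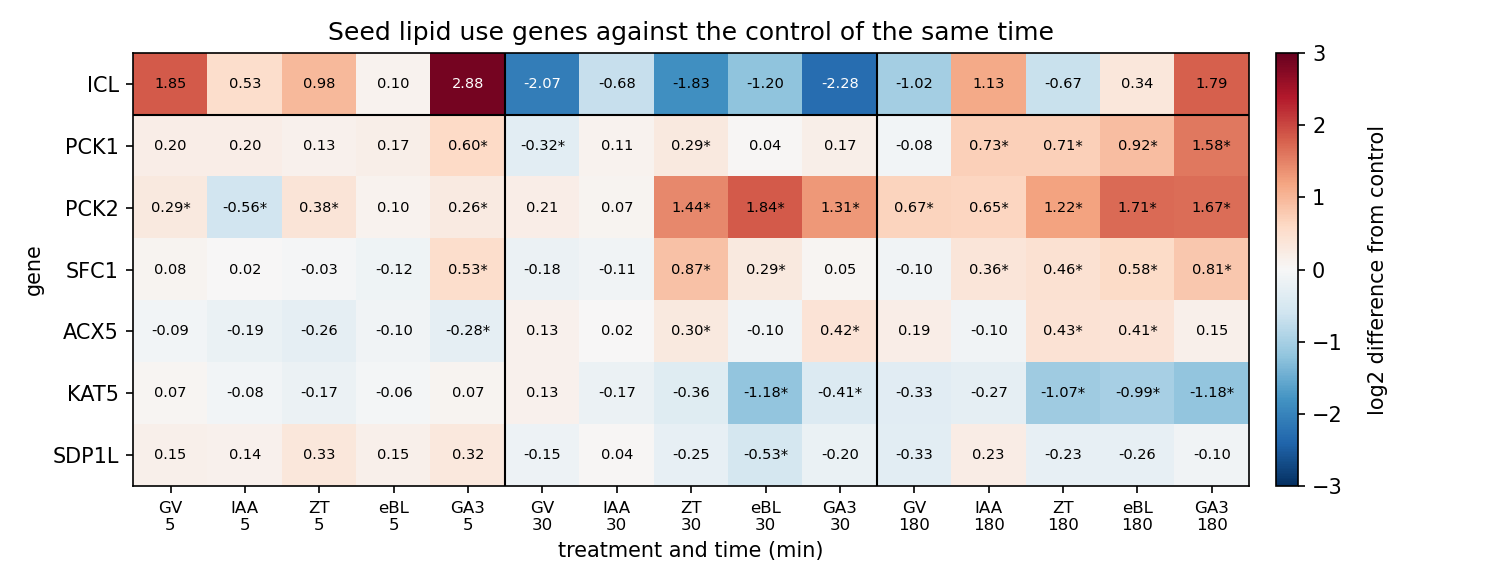
Log2 difference from the control of the same time for ICL (top, description only, from mean FPKM) and the 6 tested lipid use genes, for each compound at 5, 30 and 180 min; red is higher and blue lower than the control, and a star marks an adjusted p under 0.05. ICL changes sign between times with every compound, though eBL at 5 min overlaps its control, while PCK1 and PCK2 are red in most columns at 180 min and KAT5 is blue with ZT, eBL and GA3 there.

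Genes whose levels were most like those of ICL were sought among the 5824 genes that reached 5 FPKM in the mean of some group, by Pearson correlation over the 18 group means. The 5 highest were AHG1 (0.949), PYL2 (0.920), ACO1 (AT2G19590, 0.916), AT4G17670 (0.915) and XTH5 (0.912), against a median of 0.01 for all genes compared and 1.13% of them above 0.8. AHG1 is a phosphatase that restrains abscisic acid signalling in seeds, and ranged from 0.195 FPKM with eBL at 5 min to 14.6 FPKM with GA3 at 180 min. PYL2, an abscisic acid receptor, ranged from 0.797 FPKM with GV at 30 min to 18.7 FPKM with GA3 at 180 min. ACO1, an oxidase of the last step of ethylene synthesis that shares its symbol with an aconitase of another locus, ranged from 1.11 FPKM in controls at 5 min to 40.5 FPKM with GA3 at 180 min. XTH5, a xyloglucan-modifying enzyme of the cell wall, reached 32.7 FPKM there. All 5 had their highest level in 1 of the 2 groups where ICL was highest. Spearman correlation shared 3 of these 5 and Pearson correlation over the 54 libraries 4 of them.

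The 3 genes least like ICL were PGL34, a plastoglobule protein of chloroplasts (-0.836), AT4G10000 (-0.835) and the dormancy-associated gene AT2G33830 (-0.790). AT2G33830, itself abundant, had 731 ± 4.25 FPKM with IAA at 180 min and 1688 ± 56.2 FPKM in controls at 5 min (SD, n = 3 each), its lowest and highest groups. Spearman correlation shared 2 of these 3 and the correlation over 54 libraries 0, so this end of the ranking was less settled.

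**Figure D4:**
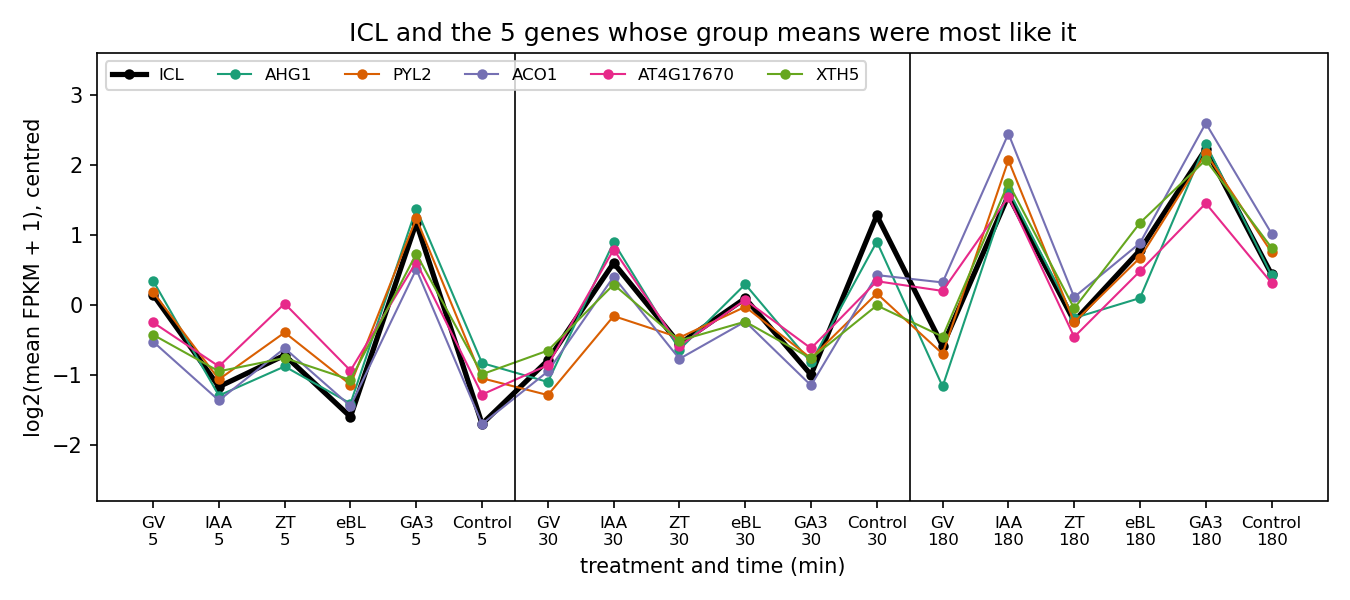
Group means of ICL (black) and of the 5 genes most like it, as log2(mean FPKM + 1) minus each gene's own mean over the 18 groups, for each treatment at 5, 30 and 180 min. In all 6 lines IAA and GA3 at 180 min are among the 3 highest groups; the genes were chosen for this likeness.

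Among 3 listed transcription factors of seed maturation and abscisic acid response, ABI4, known from Arabidopsis embryos as a regulator of lipid breakdown, had the closest course, with a correlation of 0.89 with ICL over 18 group means, against 0.67 for ABI3 and 0.20 for ABI5. ABI4 was low, with group means between 0.0879 and 16.3 FPKM. With GV at 30 min it had 0.480, 0.375 and 0.630 FPKM, against 2.31, 2.69 and 3.02 FPKM in controls. It fell by 1.30 on the log2 scale there (adjusted p = 2.55e-09), and by 1.15 with GA3 (adjusted p = 1.33e-08) and 0.79 with ZT (adjusted p = 1.05e-05). The fall of 0.43 with eBL at 30 min (adjusted p = 0.0111) did not pass without eBL replicate 3 (-0.26, adjusted p = 0.149), and IAA differed by 0.04 (adjusted p = 0.917).

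At 5 min ABI4 rose with GA3, at 4.44, 4.76 and 4.95 FPKM, against 0.484, 0.0378 and 0.433 FPKM in controls, by 2.13 (adjusted p = 1.14e-16). GV and ZT gave rises of 0.97 (adjusted p = 1.1e-06) and 0.92 (adjusted p = 9.32e-07). At 180 min it was higher with IAA, at 16.6, 16.2 and 16.1 FPKM, against 6.02, 7.23 and 6.80 FPKM in controls (1.17, adjusted p = 9.04e-09). It was lower with GV, ZT and eBL, with differences of -1.45, -1.59 and -1.08 (adjusted p = 1.08e-10, 9.86e-13 and 3.5e-08). The rise of 0.35 with GA3 (adjusted p = 0.0385) was lost under several alternatives, with an adjusted p of up to 0.344. Of the comparisons in which ABI4 passed, 2 differed in sign from ICL. With eBL at 180 min ICL stood at 1.27 times its control, whereas ABI4 fell, and in controls between 30 and 180 min ABI4 rose by 1.07 (adjusted p = 1.21e-07) while ICL stood at 0.558 of its earlier level.

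Markers of seed tissue that whole seedlings could still carry were set beside ICL. The 2 of 4 endosperm markers in the table were the mannanase MAN7 and the extensin EPR1. Their sum ran from 8.46 FPKM in controls at 5 min to 36.0 FPKM with GA3 at 180 min. These groups also bound the range of ICL, but neither marker alone had both of them as its extremes. MAN7 was lowest with eBL at 5 min (3.37 FPKM) and highest with IAA at 180 min (15.2 FPKM). EPR1 was lowest with ZT at 180 min (3.67 FPKM) and highest with GA3 at 180 min (24.8 FPKM). With GA3 at 5 min MAN7 had 8.12, 8.93 and 9.42 FPKM, against 2.99, 4.02 and 3.12 FPKM in controls (log2 difference 1.17, adjusted p = 2.2e-11). EPR1 had 22.9, 19.4 and 20.8 FPKM there, against 4.83, 5.48 and 4.92 FPKM in controls (1.86, adjusted p = 5.07e-10). Both markers thus rose in a group where ICL was 7.35 times its control and 23.7% of all tested genes passed as higher. Both also rose with IAA at 180 min, where 11.2% of all tested genes passed as higher. MAN7 rose there by 0.62 (adjusted p = 4.7e-05) and EPR1 by 0.71 (adjusted p = 0.00911). With GA3 at 180 min EPR1 rose by 1.75 (adjusted p = 2.57e-09), while MAN7, at 9.79 to 13.7 FPKM with GA3 and 9.28 to 9.59 FPKM in controls, differed by 0.20 (adjusted p = 0.151). With GV at 30 min MAN7 had 4.15 to 4.63 FPKM, against 8.04 to 8.69 FPKM in controls (-0.80, adjusted p = 1.93e-06), and EPR1 differed by -0.39 (adjusted p = 0.336). With eBL at 180 min, where ICL libraries lay above the controls, 0 of the 2 markers were higher and 1 lower. Of all tested genes 16.2% were higher and 21.8% lower there. Over the 18 group means the correlation with ICL was 0.89 for MAN7 and 0.74 for EPR1. The part of endosperm in the ICL differences was not tested. The oil-body list, with all 7 genes in the table, summed to between 1.21 FPKM with ZT at 30 min and 18.9 FPKM with IAA at 180 min, and its OLEO3 had a correlation of 0.84 and its OLEO4 one of -0.25. The 7 of 8 seed storage genes in the table summed to between 0.392 FPKM with ZT at 180 min and 50 FPKM with GV at 30 min, where ICL was low. Of the storage proteins, the cruciferin CRC had a correlation of 0.16 with ICL, and 6 of the 7 were listed at 0 in all libraries of at least 1 group. Green-tissue markers, all 4 in the table, summed to 20705 to 47556 FPKM in every group. Of 4 root markers, PRP3 and TIP2-3 were present, at sums of 2.08 to 15.8 FPKM.

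**Figure D5:**
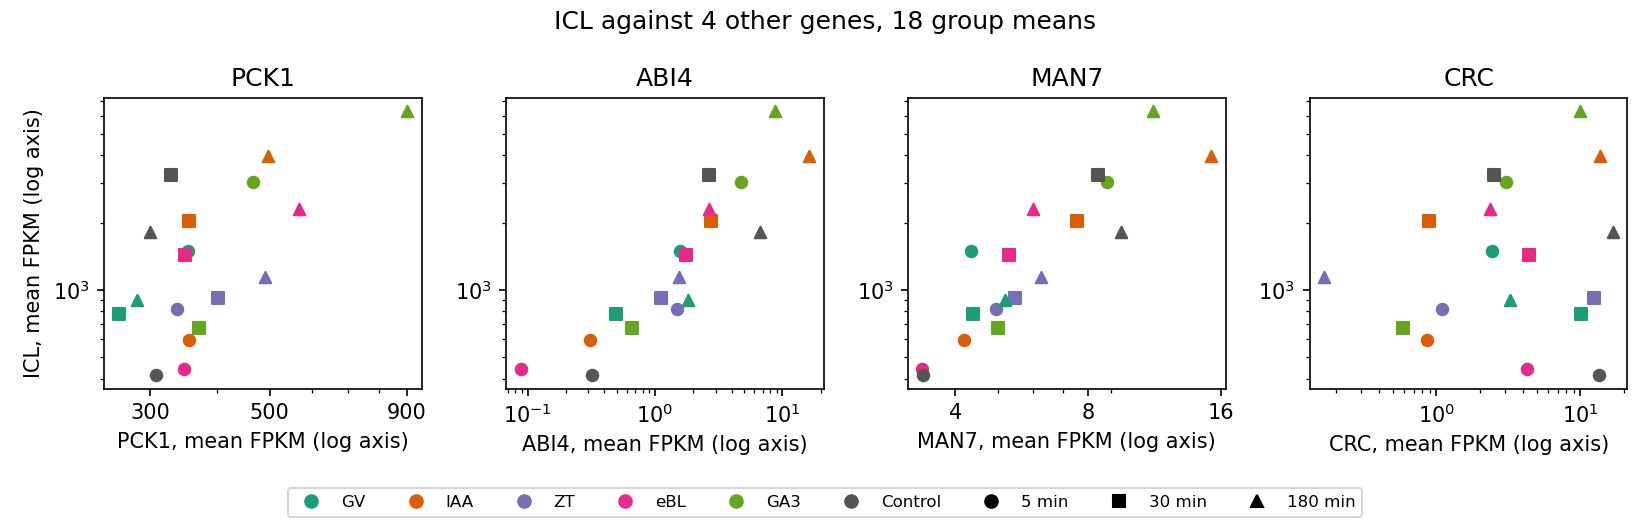
ICL mean FPKM against the mean FPKM of PCK1, ABI4, MAN7 and CRC in the 18 groups, on log axes; colours are treatments and marker shapes the times. ABI4 and MAN7 (correlation 0.89 each) rise with ICL across groups, PCK1 (0.65) does so in part, and CRC (0.16) varies without regard to it.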

How the data were processed

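RNA from whole seedlings was sequenced in 54 libraries, 3 in each of 18 groups. Reads were aligned with Bowtie2 2.2.3 to TAIR10, per the submitters' processing notes. The counting tool, its strand setting and its treatment of reads matching 2 genes were not given in the sources used here. The authors deposited 1 table of FPKM values, whose header names no unit. FPKM was recognised from the values, since a value times its gene length gave a whole number of library-specific steps (100% of values, tolerance 0.05 reads). That step gave the library totals, and 1 read in a gene of 1 kb equals 0.0421 to 0.0562 FPKM. Column names gave the compound or its hormone class, the time and the replicate, and tied each column to a library, those with W to GV by elimination, with 0 columns unmatched. Damaged lines (3 of 24000) were not used.

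Values were analysed as log2(FPKM + 1), a scale that compresses differences between low values. The filter kept the 10622 genes that reached a mean of 1 FPKM in some group. Group means of all 54 libraries were fitted together with limma 3.58.1 in R 4.3.3 (trend and robust variance, 36 residual degrees of freedom), and p-values were Benjamini-Hochberg adjusted over all 10622 genes, with calls at 0.05. An effect at 30 minus 5 min or 180 minus 30 min is an interaction contrast. ICL was left out of all counts of calls. Tables and correlations were made with Python 3.11.15 and pandas 2.3.3. The fit was tried on simulated data in which all genes had the same spread beyond counting error and no library stood apart. That trial does not show how the fit handles a library such as eBL 30 min replicate 3. The members and gene lists were chosen with earlier results of these data known. Named in full are the members, then up to 3 called genes each way per comparison, and the 5 genes most and 3 genes least like ICL among those reaching 5 FPKM. All compounds at a time share the same 3 control libraries.

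Alternatives were a pseudocount of 0.1, no filter on low values, quantile normalization, only the compared groups in the fit, the replicate number as a block, and leaving out each library. Comparisons of PCK1 within the ZT, eBL and GA3 columns, the alternatives for ABI4, and the values of effects between times without eBL 30 min replicate 3, were added after the data were seen. Replicate numbers were not taken to pair libraries.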

Additional observations from a re-analysis of the deposited data

Results flagged for a closer look

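The effect of a compound on ICL changed direction between times in 7 steps, all libraries of the compound lying on one side of the controls at the earlier time and on the opposite side at the later one. On the log2 scale the step in effect from 5 to 30 min was -3.91 with GV, -1.21 with IAA, -2.82 with ZT and -5.15 with GA3. The step from 30 to 180 min was 1.81 with IAA, 1.54 with eBL and 4.07 with GA3. ICL was chosen from these values, and the difference was not tested.

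PCK1 effects differed between times by limma's interaction contrasts. From 30 to 180 min the effect grew by 1.42 with GA3 (adjusted p = 5.5e-12), 0.87 with eBL (adjusted p = 7.64e-07), 0.62 with IAA (adjusted p = 0.00062) and 0.42 with ZT (adjusted p = 0.0135). After quantile normalization the ZT value was 0.04 (adjusted p = 0.786) and the eBL value 0.40 (adjusted p = 0.000105). Without eBL 30 min replicate 3 the eBL value was 0.62 (adjusted p = 2.7e-13). From 5 to 30 min it differed by -0.52 with GV (adjusted p = 0.00306) and -0.43 with GA3 (adjusted p = 0.0055). For comparison, 23.8% of all tested genes passed the GA3 step from 30 to 180 min, 29.5% the eBL step, 9.26% the IAA step and 19.1% the ZT step. From 5 to 30 min 10.5% passed with GV and 39.5% with GA3.

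PCK2 effects differed from 5 to 30 min by 0.64 with IAA (adjusted p = 0.00123, with 8.62% of all genes passing), 1.06 with ZT (2.39e-08, 40.4%), 1.74 with eBL (2.6e-13, 27.1%; 1.77 without eBL 30 min replicate 3) and 1.05 with GA3 (2.76e-08). From 30 to 180 min they differed by 0.46 with GV (adjusted p = 0.0368, with 4.75% passing), 0.57 with IAA (0.00354) and 0.36 with GA3 (0.0469). The PCK2 steps with ZT, eBL and GA3 from 5 to 30 min cross the runs of columns described for this gene, whose part was not tested.

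KAT5 effects differed by -1.12 with eBL from 5 to 30 min (adjusted p = 0.000188), or -0.78 (0.000783) without eBL 30 min replicate 3, and by -0.71 with ZT (0.0189) and -0.77 with GA3 (0.00807) from 30 to 180 min. ACX5 effects differed from 5 to 30 min by 0.56 with ZT (adjusted p = 0.0034) and 0.70 with GA3 (0.000359), and from 30 to 180 min by 0.50 with eBL (0.0128). Without that library the eBL value of ACX5 was 0.26 and no longer passed (adjusted p = 0.101). SFC1 effects differed by 0.91 with ZT (adjusted p = 4.22e-05) and -0.49 with GA3 (0.0225) from 5 to 30 min, and by 0.76 with GA3 (0.000802) from 30 to 180 min. SDP1L effects differed from 5 to 30 min by -0.58 with ZT (adjusted p = 0.0268), -0.68 with eBL (0.0158) and -0.53 with GA3 (0.0464). Without that library the eBL value of SDP1L was -0.32 and no longer passed (adjusted p = 0.125). Of all tested genes, 27.1% passed the eBL step from 5 to 30 min and 29.5% that from 30 to 180 min, but 8.85% and 10.3% when only the groups compared were fitted.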

How the results depend on the processing

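The counts below are lipid use genes called of the 6 tested. With a pseudocount of 0.1, GV at 5 min gave 0 (1 as reported). With no filter on low values, GV at 5 min and at 30 min gave 0 each (1 each as reported), GA3 at 5 min 2 (4), control at 180 against 30 min 0 (1), and the effects at 180 minus 30 min 6 (11), with more genes in the adjustment. After quantile normalization, IAA and ZT at 5 min gave 2 each (1 each), eBL at 5 min 1 (0), IAA at 30 min 1 (0), GV at 180 min 2 (1) and control at 180 against 30 min 2 (1). The ICL range became 3.73 (3.93 log2 units), and 14 of 17 ICL differences moved by more than the replicate spread and 0 reversed. Quantile normalization shifted the median of all genes by -0.124 for ZT and -0.130 for GA3 at 5 min, and by 0.149 and 0.182 for their effects at 30 minus 5 min. When the fit held just the groups compared, GV and IAA at 5 min gave 2 each, ZT at 5 min 3, eBL at 5 min 1, eBL at 30 min 1 (4), GV at 180 min 2 and control at 180 against 30 min 0. Leaving out 1 library gave, at 5 min, 0 to 2 with GV, 1 to 2 with IAA, 1 to 4 with ZT, 0 to 1 with eBL and 2 to 5 with GA3. At 30 min it gave 0 to 1 with GV, 0 to 1 with IAA, 3 to 6 with ZT, 3 to 4 with eBL and 2 to 4 with GA3. At 180 min it gave 1 to 2 with GV, 2 to 3 with IAA, 5 to 5 with ZT, 5 to 6 with eBL and 4 to 4 with GA3. For controls it gave 2 to 4 at 30 against 5 min and 0 to 2 at 180 against 30 min, for effects 12 to 15 at 30 minus 5 min and 9 to 11 at 180 minus 30 min, and for the ICL range 3.89 to 3.97. Without eBL 30 min replicate 3, PCK1 with eBL against the mean of ZT and GA3 at 30 min turned to 0.07 (-0.19 with it). The cause of these changes was not tested. The replicate block left every count as reported, 14 effects at 30 minus 5 min and 11 at 180 minus 30 min included. Libraries with the same number did not deviate together, with a median correlation of 0.001, a range of -0.180 to 0.201 and 1.74% of 459 pairs over 0.1. Depth limits the genes of a few FPKM, such as KAT5 and SDP1L, more than ICL and PCK1.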

Other observations

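Abundant genes of leaf photorespiration and of the response to sugar shortage are described without a test. GGT1, a glutamate:glyoxylate aminotransferase of leaf peroxisomes, had its lowest group mean, 451 FPKM, with IAA at 180 min and its highest, 1279 FPKM, in controls at 5 min. AGT1, the serine:glyoxylate aminotransferase, had 371 and 1210.1 FPKM in the same 2 groups, and the glycolate oxidase GOX1 254 and 525 FPKM. The glycolate oxidase GOX2 was instead lowest with ZT at 180 min (271 FPKM) and highest with GV at 180 min (460 FPKM). The 4 listed genes known to respond to sugar shortage differed among themselves. ASN1, an asparagine synthetase, was lowest with IAA at 180 min (221 FPKM) and highest in controls at 5 min (875 FPKM). SEN1 ranged from 317 FPKM with IAA at 180 min to 1188 FPKM with eBL at 180 min, DIN10 from 623 FPKM with IAA to 1441 FPKM with ZT, both at 180 min, and BCAT2 from 169 to 639 FPKM in the same 2 groups. With GA3 at 180 min, where ICL was highest, all 4 were higher than in controls of that time. ASN1 had means of 599.8 FPKM with GA3 and 347 FPKM in controls, and SEN1 1025 FPKM with GA3 and 611 FPKM in controls. All 4 were also higher with ZT and eBL at 180 min and with GV, ZT, eBL and GA3 at 30 min. In these comparisons 1.51% to 23.1% of all tested genes passed as higher. With ZT and GA3 at 5 min all 4 were lower, where 8.02% and 11% of all tested genes passed as lower. The median log2 difference of the 4 was 0.77 with GA3, 1.14 with ZT, 1.00 with eBL, 0.12 with GV and -0.68 with IAA at 180 min. At 30 min, where every compound gave less ICL than the control, it was 0.51 with GV, 0.03 with IAA, 0.56 with ZT, 0.55 with eBL and 0.90 with GA3. The median over all tested genes lay between -0.066 with GA3 and 0.046 with IAA at 180 min. At 30 min that median lay between -0.042 with GA3 and 0.031 with IAA. Over the 18 group means the correlations with ICL were -0.73 for GGT1, -0.61 for AGT1, -0.57 for GOX1 and -0.46 for GOX2. They were -0.53 for ASN1, -0.40 for SEN1, -0.24 for DIN10 and -0.51 for BCAT2, a description over groups that share libraries and depth.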
